A study of Mus musculus with 12 samples.

Results

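The secreted Wnt inhibitors are a set of 10 genes: Sfrp1, Sfrp2, Sfrp4, Frzb, Wif1, Dkk1, Dkk2, Dkk3, Sost and Sostdc1, out of 21924 protein-coding genes. They were chosen by function, and every CUT&RUN region that overlapped a gene body extended by 50 kb on each side was taken as a region of that gene. This gave 19 of 31617 H3K27ac regions and 31 of 28047 H3K27me3 regions. In CUT&RUN an antibody directs a nuclease to a chromatin mark, and the released DNA is sequenced. The cells were mouse mesenchymal stem cells (MSCs), stromal cells with the capacity to become osteoblasts, adipocytes or chondrocytes. They came from young mice aged 3 to 5 months and old mice aged 18 to 22 months, no further allele or treatment is named, and all of them were grown at 2% O2. H3K27ac, acetylation of lysine 27 of histone H3, marks active promoters and enhancers, and H3K27me3, trimethylation of the same residue, is laid down by the Polycomb complex at repressed genes. There were 3 libraries for each mark and age, 12 in all. The labels do not say that replicates were separate animals or cultures, so the p-values measure the spread between these samples, which may be technical.

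H3K27ac libraries held 2750953 to 5541429 reads and H3K27me3 libraries 3622108 to 9947515, of which 33.4 to 41.4% and 53.8 to 66.6% lay in the listed regions. In H3K27me3 this share was 62.3 to 66.6% in young and 53.8 to 60.75% in old libraries, without overlap. In H3K27ac the shares of the ages overlapped. The scaling used below levels the typical region between libraries, and thus removes a shift shared by most regions from the comparison of ages. Old replicate 2 was the shallowest library of both marks. As a check of the labelled cell type, 9 of 9 MSC marker genes had an H3K27ac region over the transcription start site (TSS), against 0 of 5 blood and macrophage, 0 of 4 endothelial and 0 of 3 mature adipocyte markers. H3K27ac regions covered 1 of 5 osteoblast and osteocyte markers (Sp7) and 2 of 3 chondrocyte markers. These were Acan, at 20.1 ± 2.71 in young and 12.3 ± 2.53 in old samples, and Col2a1, at 70.9 ± 15.0 and 99.0 ± 13.7 (SD, n = 3) in scaled signal, the deposited value of a region brought to a common scale across libraries. The part of these markers in the results below was not tested. The tables list only called regions, so a gene without a region was not shown to lack reads.

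Wnt proteins bind a Frizzled receptor and the co-receptor LRP5 or LRP6, which stabilises beta-catenin and turns on TCF/LEF target genes. The secreted inhibitors act outside the cell and by different routes. Sfrp1, Sfrp2, Sfrp4 and Frzb carry a Frizzled-like domain and bind Wnt proteins, as does Wif1 through a domain of its own. Dkk1, Dkk2, Sost (sclerostin, made by osteocytes in bone) and Sostdc1 bind the LRP co-receptors, and Sostdc1 also binds bone morphogenetic proteins. Dkk3 is a divergent member of the Dkk family whose action on Wnt signalling is less direct. In bone, Wnt signalling favours formation of osteoblasts from MSCs, and Dkk1 and sclerostin restrain bone formation.

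RefSeq promoter sequences (GRCm38.p6) were at hand for 6 of the 10 genes: Dkk1, Dkk2, Sfrp2, Frzb, Wif1 and Sost. Those upstream of the start of Dkk2, a start under both marks at which the age groups stood apart in H3K27ac, and of Sfrp2, Wif1 and Sost, whose starts were under H3K27me3 alone, are shown on the strand of the gene with CpG dinucleotides, the sites of DNA methylation, in capitals. They span chr3:132085042-132085291 (plus strand), chr3:83766071-83766320 (plus), chr10:121033754-121033959 (plus) and chr11:101967016-101967265 (minus).
Dkk2: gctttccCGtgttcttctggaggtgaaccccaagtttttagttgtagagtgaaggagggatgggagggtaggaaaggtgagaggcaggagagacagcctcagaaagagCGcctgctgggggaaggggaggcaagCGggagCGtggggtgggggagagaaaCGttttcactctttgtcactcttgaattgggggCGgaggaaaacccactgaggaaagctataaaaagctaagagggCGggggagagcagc
Sfrp2: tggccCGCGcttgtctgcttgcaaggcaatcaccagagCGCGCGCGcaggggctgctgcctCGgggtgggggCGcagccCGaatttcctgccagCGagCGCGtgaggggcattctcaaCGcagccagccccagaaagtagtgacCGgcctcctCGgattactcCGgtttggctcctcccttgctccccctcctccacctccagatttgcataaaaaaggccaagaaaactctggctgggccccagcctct
Wif1: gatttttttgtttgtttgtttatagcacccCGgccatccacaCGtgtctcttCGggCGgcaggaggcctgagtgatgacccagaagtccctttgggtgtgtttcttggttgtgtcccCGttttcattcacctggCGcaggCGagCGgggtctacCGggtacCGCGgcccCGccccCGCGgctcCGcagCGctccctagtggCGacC
Sost: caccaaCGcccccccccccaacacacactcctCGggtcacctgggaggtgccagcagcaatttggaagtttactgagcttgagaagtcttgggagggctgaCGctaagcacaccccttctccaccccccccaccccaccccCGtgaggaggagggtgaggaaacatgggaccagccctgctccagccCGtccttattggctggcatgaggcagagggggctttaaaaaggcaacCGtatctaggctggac
The Wif1 sequence stops at the GENCODE start, 44 bases before the RefSeq start. Wif1 held 17 CpGs in the 206 bases shown, Sfrp2 16 in 250, Dkk2 7 in 250 and Sost 6 in 250. Over 250 bases before the RefSeq start, Wif1 held 21, Frzb 16 and Dkk1 6, and the median of the 32841 promoters of the table was 6. Of these bases, the 169 nearest the RefSeq start at Dkk1 and the 229 nearest it at Frzb lie inside the gene by the GENCODE start. The letters TATAAA lay at position -32 from the start of Dkk2 and at -54 from the RefSeq start of Dkk1, inside Dkk1 by the GENCODE start. Wif1 held them on the opposite strand. On either strand they were thus found in 3 of these 6 windows and in 12.4% of all promoters. GGGCGG, searched on both strands, occurred 2 times at Dkk2, 2 times at Wif1, once at Frzb and not in the other windows, and was present in 32.7% of promoters. The core of the TCF/LEF motif is CTTTG followed by 2 letters that are each A or T. It occurred only in the Dkk1 window among these 6, at -117 and -98, both inside the gene by the GENCODE start. On either strand it was present in 14.8% of promoters.

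The genes fell into 3 kinds by the mark over the gene start. The starts of Dkk1, Sfrp2, Sfrp4, Wif1, Sost and Sostdc1 (6 of 10) lay under an H3K27me3 region alone. Those of Dkk2, Sfrp1 and Frzb (3 of 10) lay under regions of both marks, and that of Dkk3 under H3K27ac alone. Among all 21911 protein-coding genes outside the mitochondrial genome, 25.3% had H3K27me3 alone, 3.17% had both marks and 46.9% had H3K27ac alone. An H3K27me3 region therefore covered 9 of 10 inhibitor starts against 28.4% of all starts, and an H3K27ac region 4 of 10 against 50.1%. All 50 regions were listed by the authors as present in old and young cells alike, and the share of all regions so listed is not given here.

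**Figure D1:**
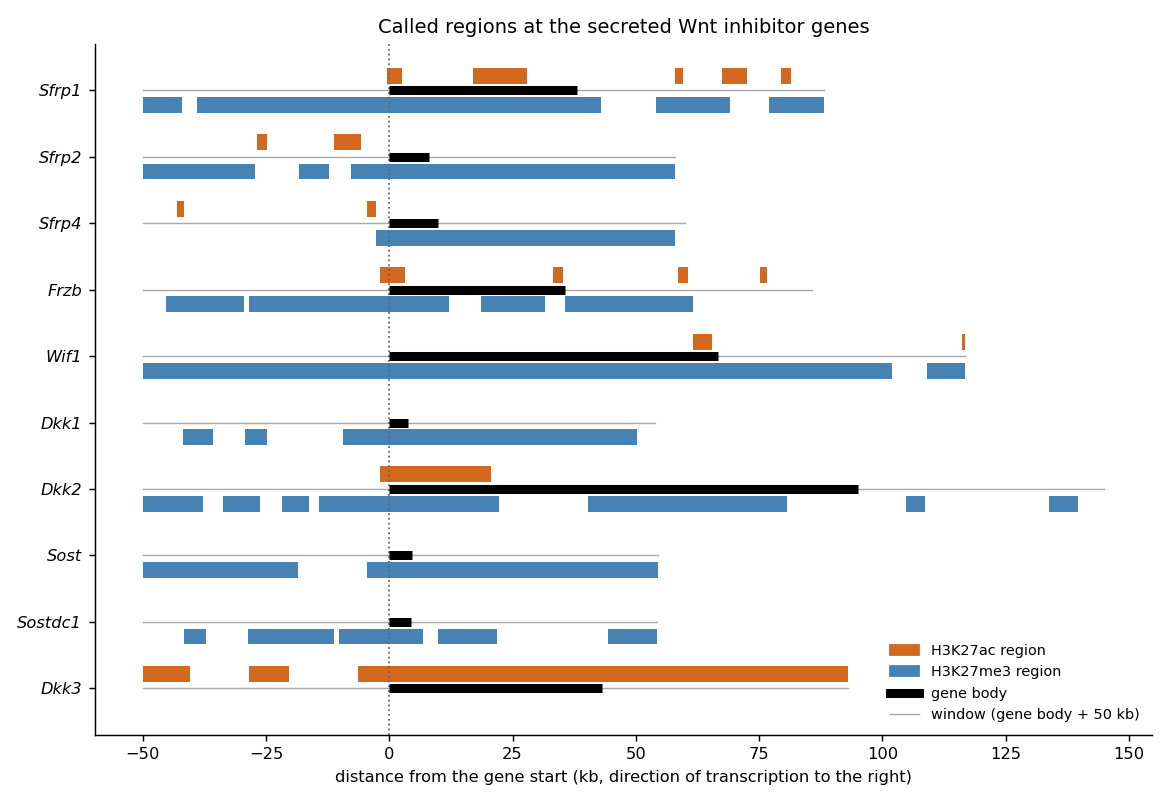
Map of the H3K27ac regions (above each line) and H3K27me3 regions (below) at the 10 genes, with distance from the gene start in kb on the horizontal axis and regions drawn only as far as the window reaches. H3K27me3 regions lay over 9 of the 10 starts, and Dkk3 carried H3K27ac alone.

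Dkk2 had 7 H3K27me3 regions and Sostdc1 had 5, Sfrp1 and Frzb 4 each, Dkk1 and Sfrp2 3 each, Wif1 and Sost 2 each and Sfrp4 1. The H3K27ac regions were fewer at most genes, with 5 at Sfrp1, 4 at Frzb, 3 at Dkk3, 2 each at Sfrp2, Sfrp4 and Wif1 and 1 at Dkk2. Dkk1, Sost and Sostdc1 had none, and Dkk3 had no H3K27me3 region. H3K27me3 regions ran from 4 to 190 kb (median 17.5 kb, against 10.5 kb for all regions of the table), and H3K27ac regions from 1 to 143.5 kb (median 3 kb, against 4 kb). The map of regions around the gene starts shows single H3K27me3 domains over the whole of Dkk1, Sfrp1, Sfrp2, Sfrp4, Wif1, Sost and Sostdc1.

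The H3K27ac at these genes often lay inside H3K27me3. Of the 19 H3K27ac regions, 11 (57.9%) overlapped an H3K27me3 region by at least 1 base, and 9 lay wholly inside it, against 15.7% and 8.39% of all H3K27ac regions. Wholly enclosed were the H3K27ac region over the start of Dkk2, that over Sfrp1 and that over Frzb, 3 more at Sfrp1, 1 more at Frzb and both at Wif1. None of the 3 H3K27ac regions of Dkk3 met H3K27me3. The overlap is that of populations of cells in separate tubes, so it does not show both marks on the same nucleosome.

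The density of the marks over the starts, in scaled RPKM (reads per kb of region relative to the library total), differed widely between the genes. For H3K27me3 it was highest in young samples at Dkk1, at 1.77 ± 0.11 (SD, n = 3), with Sost at 1.70 ± 0.09, Sostdc1 at 1.60 ± 0.10 and Wif1 at 1.50 ± 0.04. Sfrp1 stood at 1.26 ± 0.10, Sfrp2 at 1.03 ± 0.13, Frzb at 0.955 ± 0.024, Dkk2 at 0.816 ± 0.011 and Sfrp4 at 0.759 ± 0.018. The samples of neighbours in this order overlapped, except that those of Wif1 lay above those of Sfrp1, those of Frzb above those of Dkk2, and those of Dkk2 above those of Sfrp4. The median over all H3K27me3 regions that cover a start was 1.04, and over both ages the densities of Dkk1 and Sfrp4 lay at percentiles 92.5 and 19.5 of these 4716 regions. For H3K27ac the density in young samples was 1.24 ± 0.09 at Dkk3, 1.08 ± 0.28 at Sfrp1, 0.878 ± 0.227 at Frzb and 0.773 ± 0.125 at Dkk2, and the samples of all neighbours in this order overlapped. Among the 8167 H3K27ac regions at starts, whose median was 1.16 in young and 1.18 in old samples, Dkk3 lay at percentile 58.9 in young and 54.8 in old. In young samples Sfrp1 lay at percentile 37.8, Frzb at 11.2 and Dkk2 at 2.98. In old samples the densities were 0.434 ± 0.1496 at Sfrp1, 0.695 ± 0.333 at Frzb and 0.535 ± 0.0057 at Dkk2, which put Sfrp1 at percentile 0.0490, Frzb at 0.833 and Dkk2 at 0.0980.

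**Figure D2:**
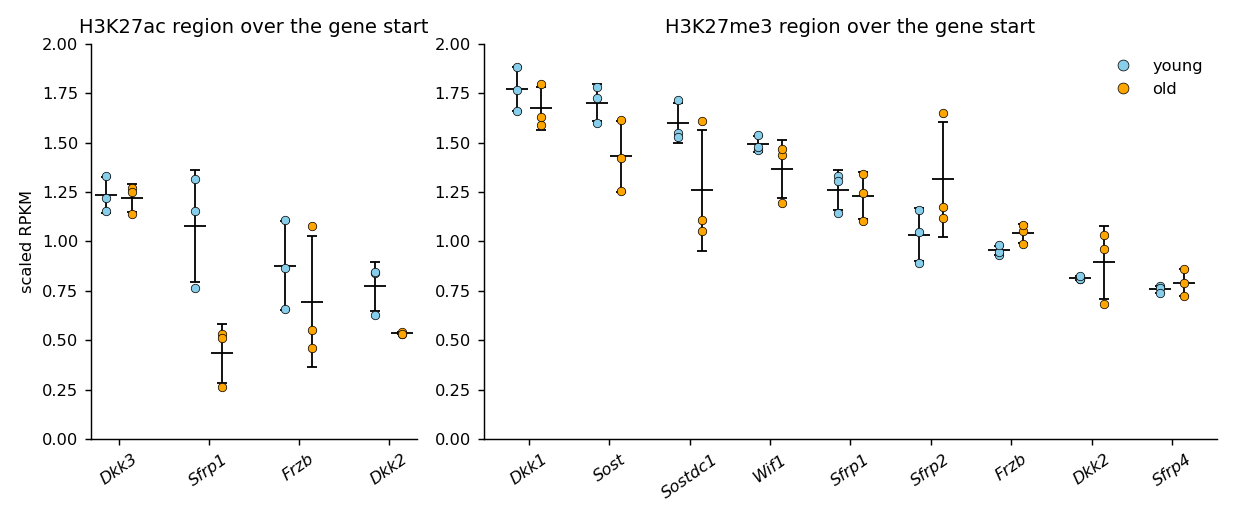
Density of each mark in the region over the gene start (scaled RPKM) for every young and old sample, with bars for the mean and SD of 3 samples. For H3K27me3, Dkk1, Sost, Sostdc1 and Wif1 had the highest means in young samples. In old samples the mean of Sfrp2 (1.31 ± 0.29) lay above that of Sostdc1 (1.26 ± 0.31). For H3K27ac the old samples of Sfrp1 and Dkk2 lay below all their young samples.

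The old samples were compared with the young ones to ask how the marks at these genes stood in aged MSCs. No region of an inhibitor passed the test in either mark, with limma on log2 scaled signal and p-values adjusted over all regions of the table (called at an adjusted p under 0.05). In bulk chromatin, fewer cells with a mark and less of the mark in each cell cannot be told apart. In H3K27ac 0 of 19 regions were called (lowest adjusted p in limma 0.242), where 0.0822% of all regions were, and in H3K27me3 0 of 31 were called (lowest 0.143), against 0.488%. At an unadjusted p under 0.05 there were 4 H3K27ac regions, all lower in old samples (at Dkk2, Sfrp1, Sfrp2 and Frzb), where 9.6% of all H3K27ac regions reached that level in either direction. In H3K27me3 there were 5, of which 3 were higher (Dkk2, Frzb, Sfrp2) and 2 lower (Sost, Sostdc1), where 13.9% of all regions reached it. The age groups did not overlap in 5 H3K27ac regions, all lower in old samples, and in 4 H3K27me3 regions, all higher, against 14.5% and 19.1% of all regions. On the reads recovered from the tables, edgeR called 0 of the H3K27ac regions and 1 of the H3K27me3 regions, where it called 0.304% and 1.4% of all regions. DESeq2 called 0 in both marks.

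The log2 fold changes of the H3K27ac regions, old against young, had a median of -0.11, with 14 lower and 5 higher, while the median of all regions was near 0. Among the lower ones were all 5 regions of Sfrp1 and all 4 of Frzb, and regions of 1 gene are not independent. By gene window, 4 were lower and 3 higher. Without young replicate 1 the median of the H3K27ac regions was -0.0196, and without old replicate 1 it was -0.0477, with 10 lower and 9 higher in either case. Those of the H3K27me3 regions had a median of 0.06, with 20 higher and 11 lower, which became 14 higher and 17 lower with the values as deposited. That scaling moved the median of all regions to -0.12 for H3K27ac and -0.13 for H3K27me3, and 22 of the 31 H3K27me3 regions lay above the median of all regions under either scaling, as did 5 of the 19 H3K27ac regions. With each library left out in turn, this number for H3K27me3 ran from 18 (without old replicate 1) to 23 (without young replicate 2). Without old replicate 1, 17 H3K27me3 regions were higher and 14 lower. No test was made on these medians.

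Among the inhibitors that bind Wnt proteins, Sfrp1 had the largest difference in H3K27ac. In the region over its start (chr8:23411001-23414000), scaled signals in young samples were 4.57, 6.92 and 7.89 and in old samples 3.19, 1.57 and 3.06. No old sample reached the lowest young one, with a log2 fold change of -1.18 (SE 0.39, 95% interval -1.97 to -0.39, limma adjusted p = 0.261). The region held 12 to 24 reads in young and 2 to 8 in old libraries, and old replicate 2 was under the 3-read level of its library, 2.18. The region 67.5 kb downstream of the start was also lower in all old samples (10.9 ± 2.69 against 14.0 ± 0.31), with a log2 fold change of -0.37 and an adjusted p of 0.657 in limma. The remaining 3 H3K27ac regions of Sfrp1 overlapped between ages, at -0.50 to -0.02. H3K27me3 over the same start, in a domain of 82 kb (chr8:23372501-23454500), was 207 ± 16.6 in young and 202 ± 19.5 in old samples. The difference of -0.03 (SE 0.09, 95% interval -0.23 to 0.16, limma adjusted p = 0.908) was within the spread of the samples.

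Sfrp2 carried H3K27me3 over its start in a domain of 86.5 kb that also covers the start of Tlr2 (chr3:83758501-83845000). The samples read 154, 201 and 182 (young) and 193, 285.5 and 203 (old). Old replicate 2 stood highest and the groups overlapped, with a log2 fold change of 0.33 (SE 0.13, limma adjusted p = 0.249). It was 0.16 without old replicate 2 and 0.21 with the values as deposited. The nearest H3K27ac region, 5.82 kb upstream of the start (chr3:83755001-83760500), read 11.4, 15.0 and 11.18 in young and 11.16, 7.08 and 6.12 in old samples. The old samples lay below the young ones by the narrowest of margins at the nearest pair, at a log2 fold change of -0.63 (SE 0.26, limma adjusted p = 0.429). The other H3K27ac region, 24.8 kb upstream, differed by 0.49 (SE 0.39).

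Frzb, which like Sfrp1 carried both marks over its start, did not pass the test in either mark. H3K27ac over the start (chr2:80444501-80449500) was 8.78 ± 2.27 in young and 6.95 ± 3.33 in old samples, a difference of -0.38 (SE 0.31, limma adjusted p = 0.747) with overlapping groups. That difference was -0.72 without old replicate 1, -0.15 without old replicate 3 and -0.20 without young replicate 1. A further H3K27ac region, 58.6 kb downstream of the start and beyond the end of the gene (chr2:80387001-80389000), read 7.19, 6.35 and 5.92 in young and 3.59, 2.36 and 4.59 in old samples. Each old sample was below every young one there (log2 fold change -0.84, SE 0.35, limma adjusted p = 0.435), on 3 to 22 reads a library. H3K27me3 over the start (chr2:80435501-80476000) read 75.7, 76.9 and 79.5 in young and 80.1, 85.3 and 87.8 in old samples. These groups did not overlap either, but the log2 fold change was only 0.12 (SE 0.10, limma adjusted p = 0.600) and 0.0024 with the values as deposited. Inside the gene, 18.6 kb from the start, H3K27me3 was 16.3 ± 2.20 in young and 21.9 ± 3.12 in old samples (0.42, SE 0.16, limma adjusted p = 0.245), and the groups overlapped.

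Sfrp4 and Wif1 differed little with age. Over the start of Sfrp4 (chr13:19620501-19681000) H3K27me3 was 91.8 ± 2.14 in young and 95.7 ± 8.27 in old samples, a log2 fold change of 0.06 (SE 0.10, 95% interval -0.14 to 0.26), which lay at -0.0660 with the values as deposited. Its H3K27ac region 2.60 kb upstream, which covers the start of Epdr1 and ends where the H3K27me3 domain begins, differed by 0.18 (SE 0.29). The Wif1 domain of H3K27me3, 155.5 kb long and covering the gene from end to end (chr10:120980501-121136000), read 455, 460 and 479 in young and 447, 456 and 372 in old samples. Only old replicate 3 stood well apart, and the log2 fold change was -0.13 (SE 0.08, 95% interval -0.31 to 0.04, limma adjusted p = 0.497). The 2 H3K27ac regions of Wif1, at the end of the gene and beyond it, differed by 0.24 (SE 0.28) and -0.02 (SE 0.46).

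Among the inhibitors that bind LRP5 and LRP6, Dkk2 had the lowest adjusted p of all 10 genes in each mark. H3K27ac covered its start and the beginning of the gene for 22.5 kb (chr3:132083501-132106000), with scaled signals of 37.9, 28.3 and 38.15 in young and 23.9, 24.4 and 23.95 in old samples. The old samples were nearly identical and below each young one, with a log2 fold change of -0.51 (SE 0.16, 95% interval -0.84 to -0.18) that did not pass the test (limma adjusted p = 0.242, edgeR adjusted p = 0.0989). H3K27me3 over the same start (chr3:132071001-132107500) read 59.3, 58.95 and 60.4 in young and 70.3, 50.05 and 75.4 in old samples. The old samples lay on both sides of the young ones, at a log2 fold change of 0.11 (SE 0.13), which was -0.0126 with the values as deposited and -0.0053 without old replicate 3. The second H3K27me3 domain inside the gene, 40.2 kb past the start (chr3:132125501-132166000), read 51.95, 54.3 and 56.0 in young and 80.1, 59.7 and 70.4 in old samples. Each old sample exceeded every young one, at a log2 fold change of 0.36 (SE 0.11, 95% interval 0.12 to 0.60, limma adjusted p = 0.143). This was the only inhibitor region called under any alternative, with an adjusted p of 0.0453 in edgeR and 0.0240 in limma without old replicate 2, and it reached 0.426 under the least favourable alternative. With the values as deposited its log2 fold change was 0.24. H3K27me3 was also above all young samples in the regions 37.8 kb upstream (log2 fold change 0.21, SE 0.13) and 105 kb downstream of the start (0.24, SE 0.24), neither near the threshold.

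**Figure D3:**
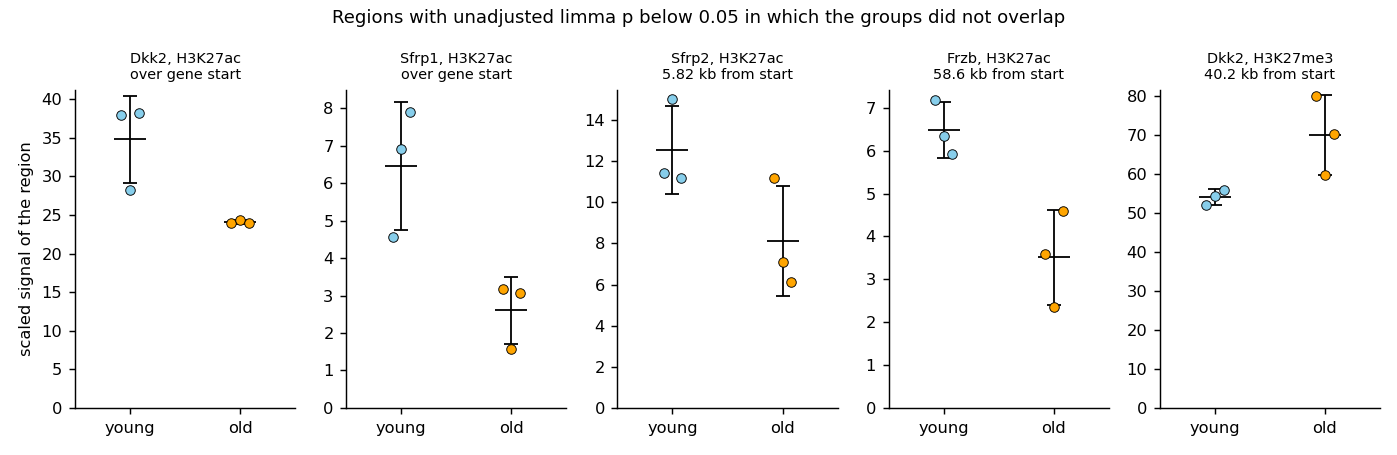
Scaled signal of the 5 regions with an unadjusted limma p under 0.05 in which young and old samples did not overlap (each point is a sample, bars give the mean and SD of 3, each panel has its own axis from 0). The 4 H3K27ac regions, at Dkk2, Sfrp1, Sfrp2 and Frzb, lay lower in old samples and the H3K27me3 region inside Dkk2 lay higher, and none of the 5 had a limma adjusted p under 0.05.

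Dkk1, Sost and Sostdc1 had H3K27me3 alone. The domain over Dkk1 (chr19:30499501-30559000) read 198, 210 and 224 in young and 214, 189 and 194 in old samples, which overlapped (log2 fold change -0.08, SE 0.09, 95% interval -0.26 to 0.10, limma adjusted p = 0.729). Over Sost the domain of 88.5 kb also covers the start of Meox1 (chr11:101883001-101971500) and read 283, 315 and 305.5 in young and 286, 252 and 222.5 in old samples. Old replicate 1 lay inside the young range and the other two below it, with a log2 fold change of -0.25 (SE 0.09, limma adjusted p = 0.202), or -0.165 without old replicate 3. Sostdc1 had the same pattern in a domain of 17 kb (chr12:36304001-36321000), at 52.7, 58.35 and 52.05 in young and 54.8, 35.8 and 37.7 in old samples. Here the log2 fold change was -0.37 (SE 0.14, 95% interval -0.66 to -0.08, limma adjusted p = 0.226), and -0.56 without old replicate 1. The adjacent domain 11.1 kb upstream of Sostdc1 lay the other way, at 19.7 ± 1.51 in young and 24.6 ± 4.24 in old samples (0.30, SE 0.16, limma adjusted p = 0.405), so that the window as a whole differed by only -0.07.

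Dkk3 stood apart from the other genes. A single H3K27ac region of 143.5 kb (chr7:112022001-112165500) ran over the whole gene and over the start of the neighbouring Usp47. It read 383, 350 and 331 in young and 364, 326 and 359 in old samples, a difference of -0.02 (SE 0.06, 95% interval -0.15 to 0.11, limma adjusted p = 0.958). The 2 upstream regions, 20.4 and 40.4 kb from the start, were 0.24 (SE 0.21) and 0.26 (SE 0.14) higher in old samples on the log2 scale with overlapping groups.

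Summed over all regions of each gene window, no inhibitor was called. In H3K27ac 0 of 7 windows were called, where 0.679% of 17226 gene windows were, and 2 had an unadjusted p under 0.05 (Dkk2 and Sfrp1, both lower in all old samples), against 12.1% of all windows. Dkk2 has a single region, and its window gave an adjusted p of 0.147 in limma and 0.0590 in edgeR. The Sfrp1 window was 50.0 ± 3.81 in young and 39.2 ± 5.55 in old samples and did not pass the test (log2 fold change -0.36, SE 0.14, limma adjusted p = 0.252). In H3K27me3 0 of 9 windows were called against 0.436% of 17422, and 1 had an unadjusted p under 0.05, that of Dkk2, against 14.4%. Its sum averaged 170 ± 4.20 in young and 199 ± 23.6 in old libraries (0.22, SE 0.09, limma adjusted p = 0.278), with overlapping groups. The Dkk2 value was 0.094 with the values as deposited and 0.32 without old replicate 2. H3K27me3 was above all young samples in the Frzb window (0.11, SE 0.08) and below all of them in the Wif1 window (-0.13, SE 0.08). With the values as deposited the Frzb value lay at -0.01, with the median of all windows at -0.16.

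**Figure D4:**
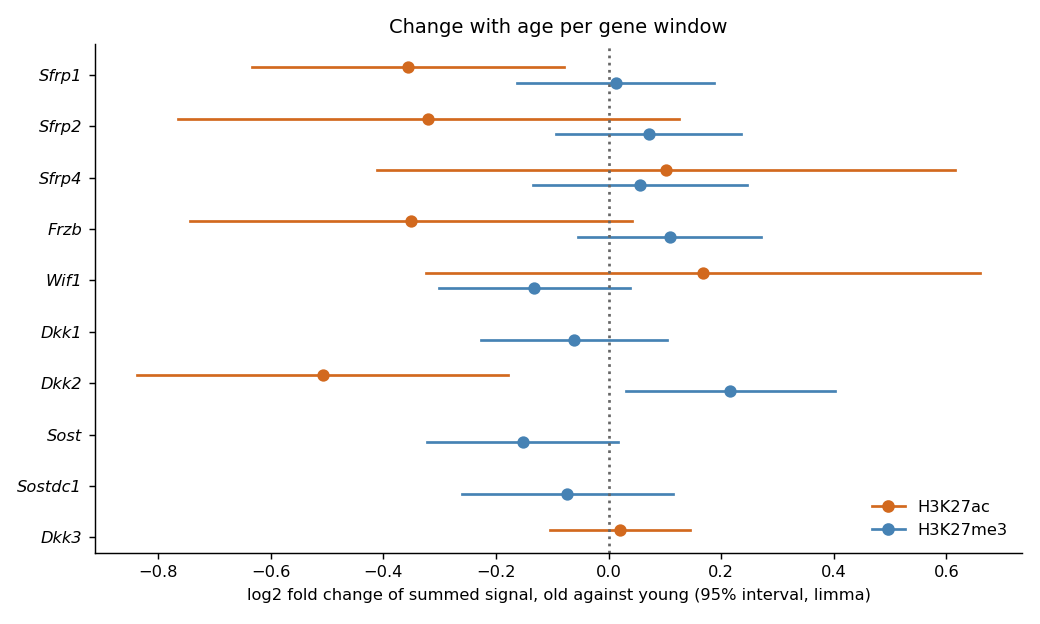
Log2 fold change of the summed signal in each gene window, old against young, with 95% intervals from limma for H3K27ac and H3K27me3. Dkk2 was the gene with the lowest H3K27ac value (-0.51) and the highest H3K27me3 value (0.22), and genes without a region of a mark have no point for it.

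The balance of the marks, the log2 of summed H3K27ac minus the log2 of summed H3K27me3, could be formed for the 6 genes with regions of both. It is a description without a test, since the tables were scaled separately. Its ± value is a combined SD, the square root of the summed variances of the 2 marks, whose libraries are not matched. The balance was below 0 in each of the 6 genes and lowest at Wif1, at -5.47 ± 0.37 in young samples, and Sfrp2, at -5.17 ± 0.13. The sums take the whole value of a region, also where it extends beyond the window, as a 190 kb H3K27me3 region of Sfrp2 does. With a flank of 10 kb, which leaves that region out, the young balance was -3.785 at Sfrp2, -3.67 at Frzb and -5.735 at Wif1. With 100 kb it was -0.477 at Frzb and lowest at Sfrp4, at -4.455. Over the starts alone it was -4.92 at Sfrp1, -3.10 at Frzb and -0.78 at Dkk2. The sums are not divided by length, and the longer H3K27me3 regions lower the balance, so its level and the order of genes depend on the regions taken. From young to old the balance with the 50 kb flank moved by -0.72 at Dkk2 (from -2.29 ± 0.25 to -3.01 ± 0.18), by -0.46 at Frzb, by -0.39 at Sfrp2 and by -0.37 at Sfrp1. At Sfrp4 it moved by 0.05 and at Wif1 by 0.30. The combined SDs in young and old samples were 0.34 and 0.26 at Frzb, 0.13 and 0.29 at Sfrp2 and 0.15 and 0.24 at Sfrp1. They were 0.20 and 0.36 at Sfrp4 and 0.37 and 0.20 at Wif1. By sign, 4 of 6 genes lay further to the side of H3K27me3 in old samples and 2 did not, without a background of other genes. At Sfrp2 the value was -0.96 with a flank of 10 kb, which leaves out regions of both marks (the H3K27ac part was -0.63 in place of -0.32 and the H3K27me3 part 0.33 in place of 0.07), and at Sfrp1 it was -1.15 when only the regions over the start were taken. At the 3 starts under both marks the balance over the start alone moved by -1.15 at Sfrp1, -0.62 at Dkk2 and -0.50 at Frzb. The combined SD within an age was 0.24 to 0.61.

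Of 50 other genes of the pathway, 30 had an H3K27ac region and 26 an H3K27me3 region over the start. In H3K27ac 0 of the 30 were called, where 0.0822% of all regions were. The median log2 fold change was 0.01, with 15 higher and 15 lower. The only region with an unadjusted limma p under 0.05 was that of Ror1, a receptor for Wnt5a (0.57, SE 0.24, limma adjusted p = 0.430), where 9.6% of all regions reached that level. In H3K27me3 1 of the 26 was called, where 0.488% of all regions were. The median was -0.09, with 9 higher and 17 lower, against -0.0077 over all regions. At an unadjusted limma p under 0.05 there were 5, all lower in old samples, where 13.9% of all regions reached that level in either direction. The called region was that of Fzd10, a Frizzled receptor (chr5:128593501-128610500), which read 70.5, 76.9 and 71.9 in young and 46.7, 42.7 and 45.96 in old samples. H3K27me3 fell there by 0.69 on the log2 scale (SE 0.11, limma adjusted p = 0.0046), and the groups did not overlap. It was called under 12 of 15 alternatives. Its adjusted p was 0.0927 in limma without trend and robust moderation, 0.0734 without young replicate 2 and 0.0598 without young replicate 3. The co-receptors Lrp5 and Lrp6, through which Dkk1, Dkk2 and Sost act, had H3K27ac alone over their starts, at differences of 0.04 (SE 0.20) and -0.06 (SE 0.06).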

How the data were processed

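CUT&RUN for H3K27ac and H3K27me3 was performed on MSCs of young and old mice, with 3 libraries in each of 4 groups taken from the sample labels. Per the labels, Bowtie2 and Picard were used with mm10 (GRCm38); versions, roles and the region caller are not given in the sources used here. The publication supplied with the series does not report these libraries and served for style and for the scaling used in the same laboratory. The yeast DNA added to the stop buffer was not analysed here.

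The authors deposited 1 table a mark, named RPKM. The deposited signal values were made by the authors as reads in a region times the RPKM that 1 read has over 0.5 kb, without division by the length of the region. Whole reads were recovered for 100% of the values (tolerance 0.01 reads). The tests had been planned for RPKM; the constant divisor leaves fold changes as they were, so they were kept. Values were scaled by relative log expression (RLE), and log2(value + 0.5) was fitted per table with limma 3.58.1 (trend and robust moderation, two-sided), with Benjamini-Hochberg adjustment over all regions and a threshold of 0.05. Fold changes on this scale understate those of low regions. Regions were assigned by GENCODE vM21 gene bodies (1 base of overlap), and sums were fitted likewise for all protein-coding genes; neighbouring windows share regions. Density is scaled signal times 0.5 divided by the length in kb. Alternatives were TMM or no scaling, pseudocounts of 0.1 and 1, a mean of at least 10 reads, limma without moderation by trend, edgeR 4.0.16 and DESeq2 1.42.0 on the recovered reads, a replicate block, each library left out, and flanks of 10 and 100 kb. The fits were tested on simulated data. Library totals give counting error only, and with 3 libraries against 3 an exact permutation test cannot go below p = 0.10.

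The genes, lists and tests were chosen with earlier results of these data known. Named were all 10 genes with the region over each start, regions with an unadjusted p under 0.05 and no overlap between groups, and pathway genes called or, where none was, at an unadjusted p under 0.05. Regions beyond this rule were named after their values were seen.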

Additional observations from a re-analysis of the deposited data

How the results depend on the processing

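Of 507 alternative values of 32 named values, 477 kept their direction and their side of the threshold, 27 changed sign and 3 newly passed the threshold. None of the 32 was called in the main fit, so none could lose the threshold. The called region of Fzd10 was not among them. The sign changes were small. With the values as deposited, the H3K27me3 values were -0.0126 over the start of Dkk2, -0.0660 over that of Sfrp4 and in its window, and -0.11, -0.0517 and -0.0138 in the windows of Sfrp1, Sfrp2 and Frzb, and the H3K27ac windows of Dkk3 and Sfrp4 were -0.0996 and -0.0108. The Dkk3 window was -0.0079 in edgeR and -0.0090 in DESeq2, and -0.0179 with a flank of 10 kb, where the H3K27me3 window of Sfrp1 was -0.0347. Flanks of 10 and 100 kb held 9 and 39 H3K27ac and 14 and 47 H3K27me3 regions. With 100 kb, 2 of the 10 H3K27ac windows were called, Dkk3 (limma adjusted p = 0.0078) and Sost (0.0103). The Dkk3 window then takes in a called region over the start of Mical2, and the Sost window regions over Meox1. Of the latter, the authors list 2 in old cells alone. The share of all gene windows called with this flank is not given here. edgeR called 1 H3K27me3 region, and with each library left out in turn 0 to 1 were called.

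With each library left out in turn, values that changed sign ranged as follows. Over the starts, H3K27ac at Dkk3 lay between -0.0657 and 0.0386, and H3K27me3 between -0.0053 and 0.29 at Dkk2, -0.103 and 0.0407 at Sfrp1 and -0.0059 and 0.12 at Sfrp4, whose window is the same region. In the windows, H3K27ac lay between -0.0101 and 0.0628 at Dkk3, -0.0698 and 0.27 at Sfrp4 and -0.0168 and 0.35 at Wif1, and H3K27me3 between -0.0426 and 0.0817 at Sfrp1.

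The replicate numbers were not treated as pairs. Same-numbered samples correlated in their deviations from the group means by -0.08 to 0.07, and differently numbered ones by -0.13 to 0.13. With so few samples this cannot decide whether they were paired. With a replicate block 0 regions and 0 windows of the inhibitors were called, and calls in the whole tables went from 26 to 81 H3K27ac and from 137 to 309 H3K27me3 regions. Over all alternatives they ranged from 0 to 105 and from 10 to 774, and for gene windows from 13 to 276 and from 10 to 618. The share of calls with more signal in old samples was 38.5% for H3K27ac and 16.8% for H3K27me3, and 15.2% and 2.71% with the values as deposited. H3K27ac regions here rest on a median of 7 reads in their shallowest library and H3K27me3 regions on 48.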

Other observations

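Beyond the 50 kb windows, and chosen after the values were seen, lay an H3K27ac region called higher in old samples upstream of Dkk3. It spans 124 kb over the start of Mical2, an actin-oxidising enzyme (chr7:112223001-112347000), and begins 63.9 kb from the start of Dkk3. The young libraries averaged 272 ± 34.5 and the old ones 392.5 ± 33.7 (scaled signal, SD, n = 3), without overlap (log2 fold change 0.53, SE 0.08, limma adjusted p = 0.0014). It was called under 13 of 15 alternatives, the exceptions being the values as deposited (adjusted p = 0.189) and limma without trend and robust moderation (0.504).

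A run of 5 H3K27ac regions over Meox1, a homeobox gene of the somites, lay 72.0 to 88.5 kb from the start of Sost (chr11:101877001-101895000). They lay within and next to the H3K27me3 domain that covers the starts of both genes. None of the 5 was called alone (log2 fold changes 0.46 to 2.10, lowest limma adjusted p 0.172), and 2 were listed by the authors as present in old cells only, on 0 to 10 reads a library. Since those 2 entered the table through the old samples alone, the sum of the 5 is not an independent comparison of the ages.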
